A study of Mus musculus with 9 samples.

Results

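The Rab genes encode a family of small GTPases that mark membranes of the secretory and endocytic pathways. The genes described here were all rows of the deposited table whose symbol is Rab, a number and at most a letter from a to d, and 59 of the 52550 genes in the table met this rule. Rows at 0 were kept. The rule takes Rab genes of every compartment, so that 26 of the 59 have an endosomal or lysosomal role. The others act in the ER and Golgi, in secretion or in lysosome-related organelles, or belong to a group of cilium and other roles.

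The experiment had 9 samples of splenic plasmacytoid dendritic cells (pDCs) from mice labelled C57BL/6, 3 for each genotype of *Ncf1* (GG, AG and AA alleles). All samples were stimulated for 12 hours with R848, a synthetic TLR7/-8 ligand. The values analysed here are those of A/A replicate 1, from homozygous knockin mice that carry the arginine-to-histidine variant of NCF1 in every cell, and none of the other 8 samples was analysed here. No genotypes were compared, and no value has a replicate error. The mice, described as female, were 10 to 12 weeks old, and the R848 concentration was 10 μg/mL. The cells were sorted as CD11c intermediate, SiglecH+ and PDCA1+, and the knockin was made with CRISPR/Cas9. The sources do not say how many mice gave the RNA of a library.

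The library held 31408298 reads, recovered from the normalized values. Levels are given as reads, as CPM (the value over the total of the library, times 1000000), and, wherever genes are compared, as CPM per kilobase of annotated exon. The 95% CIs are Wilson intervals, which cover counting error only, since copies made by PCR cannot be told from separate molecules. The floor, the limit that a count of 0 allows, is 3 reads or 0.0955 CPM. All 11 pDC markers had reads, with 10293 CPM in sum, *Siglech* and *Bst2* (PDCA1) of the sort among them. The sums were 325 CPM for 5 macrophage markers, of which *Cd68* alone held 298, and 253 CPM for 7 conventional DC markers. B cell (5 genes), neutrophil (5) and erythroid (4) markers summed to 10.4, 24.3 and 2.93 CPM, and the 4 T cell markers were at 0. Among the markers of other cell types, *Zbtb46* (106), *Clec9a* (73.9) and *Sirpa* (67.5) of the conventional DC list, *Adgre1* (25.1) of the macrophage list, and *S100a8* (14.7) and *S100a9* (9.62) of the neutrophil list had the highest CPM after *Cd68*, while *Cd209a*, *Pax5*, *Vsig4*, *Marco*, *Ly6g*, *Mpo*, *Elane* and *Hbb-bs* were at 0. The part of other cells in the Rab levels was not tested. In a bulk library, fewer cells of a type and less RNA per cell cannot be told apart. The library goes against the stated sex of the mice, since the Y-linked *Ddx3y* had 102 CPM and *Xist* was listed at 0. The 37 mitochondrial genes were listed at 0. *Ncf1* had 1079 CPM, which does not separate the alleles.

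A Rab protein is a switch. Exchange factors load it with GTP on its membrane, effectors bind the loaded form to move, tether or fuse vesicles, and GTPase activating proteins turn it off. Lipid groups attached to cysteines at its C-terminal end hold it on the membrane, and GDP dissociation inhibitors return it to the cytosol. In pDCs, nucleic acid ligands reach TLR7 and TLR9 in endosomes, whose identity from early endosome to lysosome is set by such proteins.

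Of the 59 Rab genes, 45 had more than 3 reads, or 76.3%, while 55.3% of the 21819 protein-coding genes and 30.4% of all listed genes did. *Rab26* had 2 reads, and 13 genes were at 0. At least 10 CPM were reached by 36 Rab genes (61.0%, against 34.4% of protein-coding and 14.9% of all genes) and at least 100 CPM by 14 (23.7%, against 8.03% and 3.42%). A level of at least 10 CPM per kilobase was reached by 25 Rab genes (42.4%, against 16.6% of protein-coding and 7.44% of all genes). The median over all 59 was 20.4 CPM, and that of all protein-coding genes was 0.828 CPM. Together the family held 126149 reads, or 0.402% of the library. On the scale of CPM per kilobase, the 10 highest genes held 70.0% of the family's sum.

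**Figure D1:**
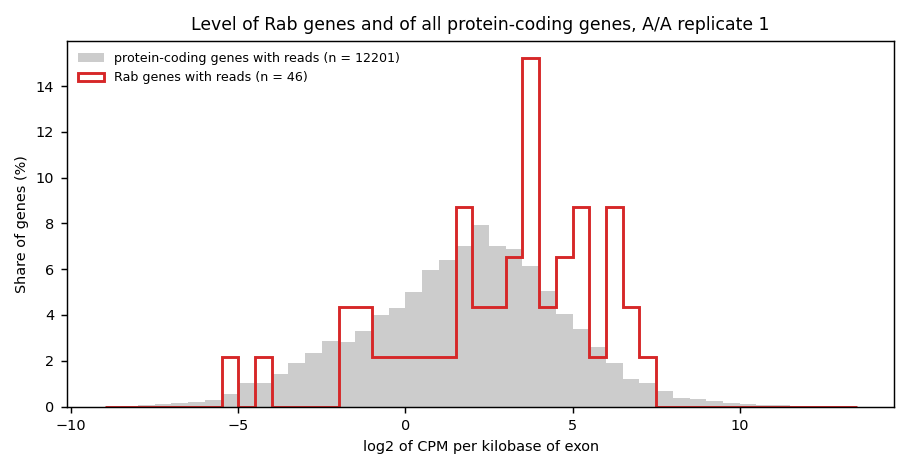
Levels of the Rab genes with reads (red outline, 46 genes) and of all protein-coding genes with reads (grey, 12201 genes) in A/A replicate 1. The x axis is log2 of CPM per kilobase of exon and the y axis the share of genes in each bin, in percent. The Rab genes spread over most of the range, with a median of 11.8 CPM per kilobase against 3.83 for protein-coding genes with reads.

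The gene with the highest level per length was *Rab8b* (ENSMUSG00000036943.9, chromosome 9, 66843664 to 66919687 of GRCm38, minus strand), whose protein directs vesicles to the plasma membrane. It had 22149 reads, or 705 CPM (95% CI, 696 to 715) and 149 CPM per kilobase (95% CI, 147 to 151). *Rab8a*, its closest relative, had 11765 reads and 80.1 CPM per kilobase (95% CI, 78.6 to 81.5). *Rab10*, which also acts in delivery to the cell surface, had 8921 reads and 80.9 CPM per kilobase (95% CI, 79.2 to 82.5). The intervals of *Rab10* and *Rab8a* overlapped, and both were below that of *Rab8b*. *Rab13*, the member of this group known from epithelial tight junctions, was listed at 0. The 4 genes of polarised exocytosis held 26.3% of the family's summed CPM per kilobase.

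The coding ends of *Rab8a* and *Rab8b* differ from those of most Rab genes in their cysteine codons, the sites of lipid attachment. Each of the 59 genes had at least 1 cysteine codon (TGT or TGC) among the last 5 codons of its longest complete coding sequence, and 50 had a pair. The 9 others, *Rab8a*, *Rab8b*, *Rab13*, *Rab18*, *Rab23*, *Rab28*, *Rab38*, *Rab40b* and *Rab40c*, had a single one, in each case in the fourth codon from the end. These 9 genes held 22.3% of the family's summed CPM per kilobase, of which *Rab8a* and *Rab8b* were 19.5 percentage points. The last 10 codons before the stop codon are shown for the 6 highest Rab genes per kilobase of exon and for the early endosomal *Rab5a* and *Rab5b*, from GENCODE M21 (GRCm38), 5′ to 3′ on the coding strand, with the cysteine codons among the last 5 in capitals.
Rab8b, chr9:66847722-66847751, minus strand: aagaccagtttcttccgcTGTtctctgctt
Rab8a, chr8:72180105-72180134, plus strand: aggaccagcttcttccggTGCagtctcctg
Rab2a, chr4:8606471-8606500, plus strand: ggcggacagcaggcagggggaggcTGCTGT
Rab10, chr12:3249790-3249819, minus strand: ggcgtgacgggctggaagagcaagTGCTGC
Rab1b, chr19:5100381-5100410, minus strand: cctgtgaagcctgctagcggtggcTGCTGC
Rab7, chr6:88000438-88000467, minus strand: gccaaggcctccgcagaaagcTGCagtTGT
Rab5a, chr17:53506397-53506426, plus strand: cagccagccagaagccagTGTTGTagtaac
Rab5b, chr10:128679533-128679562, minus strand: cagcagaacaagagccagTGTTGTagcaac
The capitals stand alone in the Rab8 genes, are adjacent in *Rab10*, *Rab1b*, *Rab2a*, *Rab5a* and *Rab5b*, and are separated by a codon in *Rab7*.

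**Figure D2:**
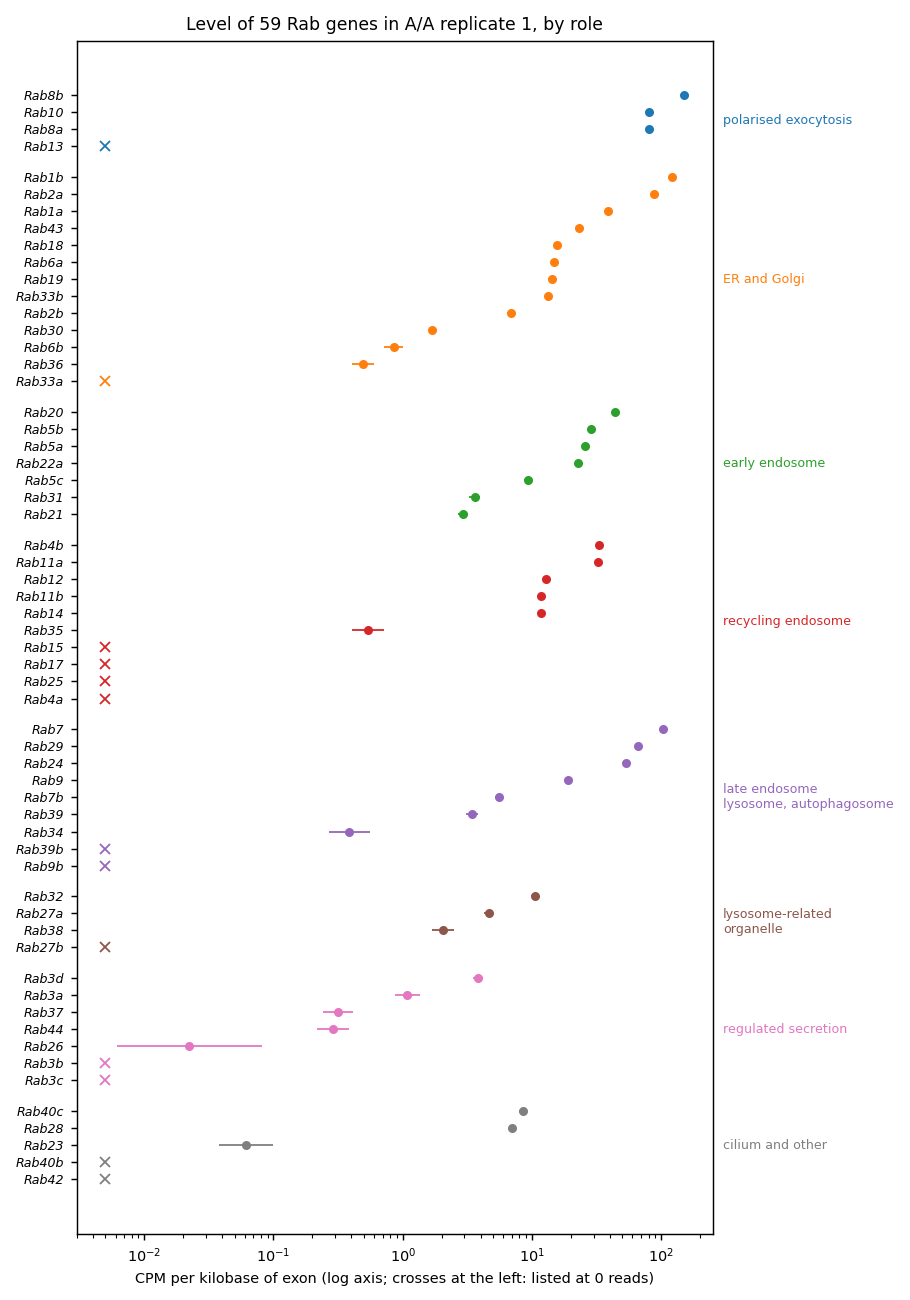
Level of each of the 59 Rab genes in A/A replicate 1, as CPM per kilobase of exon on a log axis, grouped by role. Points are levels, bars are 95% Wilson intervals for counting error, and crosses mark the 13 genes listed at 0. *Rab8b* is the highest point at 149 and *Rab23* the lowest of the genes with more than 3 reads at 0.0615.

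Rab genes of the ER and Golgi held 28.7% of the family's summed CPM per kilobase, and 12 of 13 had more than 3 reads. This order against polarised exocytosis depends on the length used. Per kilobase of coding sequence the shares were 24.4% for the ER and Golgi and 35.1% for polarised exocytosis. *Rab1b*, which acts in transport from the ER to the Golgi, had 8602 reads and 121 CPM per kilobase (95% CI, 118 to 123). *Rab8b* alone was higher per kilobase of exon, but *Rab8a* and *Rab10* were also higher per kilobase of coding sequence. The coding length used for *Rab1b*, 764 bases, exceeded its longest complete coding sequence of 201 codons. Its level and the ER and Golgi share per kilobase of coding sequence are therefore too low. The order of *Rab1b* and *Rab7* on that scale is not given. *Rab1a*, with the same function, had 4634 reads and 38.8 CPM per kilobase. *Rab2a*, a Golgi Rab, had 87.6 CPM per kilobase and its relative *Rab2b* 6.89, but exons of *Tox4* and *Gm43766* on the other strand overlapped 64.0% of the exon bases of *Rab2b*.

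The next genes of the ER and Golgi lay close to one another. *Rab43* had 23.0 CPM per kilobase, *Rab18*, found on the ER and on lipid droplets, had 15.6, and *Rab6a*, which acts in retrograde traffic through the Golgi, had 14.9. *Rab19* had 14.3 CPM per kilobase and *Rab33b*, a Golgi Rab with a role in autophagy, had 13.2. From *Rab18* to *Rab33b* the intervals of neighbours overlapped. *Rab30* had 1.70, *Rab6b* 0.854 and *Rab36* 0.495 CPM per kilobase, and *Rab33a* was listed at 0.

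All 7 genes of the early endosome had reads, between 432 and 5108 each, and together they held 11.6% of the summed CPM per kilobase. The Rab5 proteins organise the fusion of early endosomes. *Rab5b* had 3773 reads and 28.6 CPM per kilobase (95% CI, 27.7 to 29.5), *Rab5a* had 4243 reads and 25.6 (95% CI, 24.9 to 26.4), and *Rab5c* had 642 reads and 9.32. The order of *Rab5b* and *Rab5a* rests on the exon length. The ratio was 1.12 (95% CI, 1.07 to 1.17) per kilobase of exon, but 0.902 with the longest transcript and 0.889 with the coding length, while *Rab5c* was the lowest of the 3 on each scale. *Rab20* (chromosome 8, 11453518 to 11478710, minus strand), a Rab of phagosome and endosome maturation, had 1917 reads and 43.8 CPM per kilobase of exon (95% CI, 41.9 to 45.9), the highest of the group on that scale. Per kilobase of coding sequence it had 87.3, below *Rab22a* (279), *Rab5a* (209) and *Rab5b* (186). Exons of *E230013L22Rik*, on the opposite strand with 214 reads, overlapped 25.6% of its exon bases. *Rab22a*, a Rab of sorting from early endosomes, had 22.6 CPM per kilobase, and its relative *Rab31* had 3.61. *Rab21*, which acts in the uptake of integrins, had 2.92, the lowest of the early endosomal genes.

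Recycling endosomes return receptors and membrane to the cell surface. Of the 10 Rab genes with this role, 6 had more than 3 reads and 4 were at 0, and together they held 8.70% of the summed CPM per kilobase. *Rab4b*, a Rab of rapid recycling, had 2049 reads and 33.1 CPM per kilobase (95% CI, 31.7 to 34.6), whereas *Rab4a* was listed at 0. The coding sequences of these 2 genes were identical at 75.0% of aligned bases. Exons of *Gm21983*, a gene on the same strand listed at 0, and of a microRNA gene overlapped 65.0% of the exon bases of *Rab4b*. *Rab11a*, a Rab of the slower recycling route, had 32.3 CPM per kilobase (95% CI, 31.2 to 33.5), which overlaps the interval of *Rab4b*, and *Rab11b* had 11.8. *Rab14*, which acts between the Golgi and endosomes, had 5012 reads and 11.7 CPM per kilobase of exon, and *Rab12* had 12.8. *Rab35* (chromosome 5, 115631908 to 115647736, plus strand), a Rab of rapid recycling and cell division, had 48 reads, or 0.542 CPM per kilobase (95% CI, 0.409 to 0.718), although no exon of another gene overlapped its exons. *Rab17* and *Rab25*, known from epithelia, and *Rab15* were listed at 0.

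The late endosomal, lysosomal and autophagosomal genes held 21.4% of the summed CPM per kilobase of exon. This share was 14.0% with the coding length and 13.6% with CPM without length, where the early endosomal genes held 13.3% and 13.1%. *Rab7* (ENSMUSG00000079477.9, chromosome 6, 87999106 to 88045270, minus strand), which drives the passage from early to late endosome and the fusion with lysosomes, had 8509 reads, or 271 CPM (95% CI, 265 to 277) and 104 CPM per kilobase (95% CI, 102 to 106). Per kilobase of exon *Rab8b* and *Rab1b* had higher levels, and every early or recycling endosomal Rab had a lower one. *Rab29*, a lysosomal Rab that binds the kinase LRRK2, had 3044 reads and 66.0 CPM per kilobase. *Rab24*, a Rab of autophagy, had 53.1 CPM per kilobase, but exons of *Prelid1* on the opposite strand, with 7461 reads, overlapped 62.4% of its exon bases. *Rab9*, which returns mannose 6-phosphate receptors from late endosomes to the Golgi, had 18.9 CPM per kilobase, while *Rab9b* was listed at 0. *Rab7b* had 805 reads and 5.54 CPM per kilobase. *Rab39* had 3.45 and *Rab34* 0.387, and *Rab39b*, known from neurons, was listed at 0. For the 3 endosomal and lysosomal groups together, 20 of 26 genes had more than 3 reads, and their share of the family's summed CPM per kilobase was 41.7%.

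Lysosome-related organelles include melanosomes and lytic granules. *Rab32* had 770 reads and 10.5 CPM per kilobase (95% CI, 9.77 to 11.2), and *Rab38*, which works with it in melanosomes, had 101 reads and 2.04 (95% CI, 1.68 to 2.48). *Rab27a*, which docks lytic granules and melanosomes, had 565 reads and 4.64 CPM per kilobase, while *Rab27b* was listed at 0. The 7 genes of regulated secretion were the lowest group, with 0.472% of the summed CPM per kilobase. *Rab3d*, known from secretory granules, led them with 506 reads and 3.84 CPM per kilobase. *Rab3a*, the synaptic vesicle Rab, had 76 reads, *Rab37* had 53 and *Rab44* had 46, and *Rab3b* and *Rab3c* were listed at 0.

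Of the remaining genes, *Rab40c*, a Rab with a SOCS box that recruits ubiquitin ligases, had 832 reads and 8.56 CPM per kilobase. *Rab28* had 1001 reads and 7.04 CPM per kilobase. *Rab23*, known from cilia and Hedgehog signalling, had 16 reads, the fewest above the floor, and *Rab40b* and *Rab42* were listed at 0. In all, 9 genes had between 16 and 135 reads and 24 had more than 1000. In the order by CPM per kilobase, 23 of the 44 neighbouring pairs had intervals that did not overlap. The intervals of the other 21 pairs overlapped, which does not settle their order, and the order within them was not tested.

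Counts near 0 were rare in this library. Among protein-coding genes, 9618 (44.1%) were at 0 and 139 had 1 to 3 reads, and among the Rab genes 13 were at 0 and 1 had 1 to 3 reads. The source of the zeros was not tested, and a gene at 0 is described here only as listed at 0.

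Paralogues within a subfamily were unequal in level. In 14 subfamilies 2 to 4 genes share a number, and in 9 of them the leading gene held over 80% of the subfamily's summed CPM per kilobase. In 6 of these 9, *Rab4*, *Rab9*, *Rab27*, *Rab33*, *Rab39* and *Rab40*, the other gene was listed at 0. No ratio is given for these, since the source of the zeros was not tested. In the other 3, *Rab7* held 94.9%, *Rab6a* 94.6% and *Rab2a* 92.7%. *Rab7* was 18.7-fold above *Rab7b* (95% CI, 17.4 to 20.2), *Rab6a* 17.4-fold above *Rab6b* (95% CI, 14.6 to 20.9) and *Rab2a* 12.7-fold above *Rab2b* (95% CI, 11.8 to 13.6).

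The other 5 subfamilies were shared more evenly. *Rab8b* was 1.86-fold above *Rab8a* (95% CI, 1.82 to 1.90), and this ratio stayed between 1.81 and 1.88 with the longest transcript and with the coding length. *Rab1b* was 3.10-fold above *Rab1a* (95% CI, 2.99 to 3.22), but 1.86-fold in CPM without length. Per kilobase of coding sequence the ratio was 1.49. That value is too low, since the coding length used for *Rab1b* exceeded its longest complete coding sequence. *Rab11a* was 2.74-fold above *Rab11b* (95% CI, 2.60 to 2.90), but 1.35-fold per kilobase of coding sequence. *Rab3d* was 3.53-fold above *Rab3a* (95% CI, 2.77 to 4.56) and 6.69-fold per kilobase of coding sequence. The coding length also brought *Rab2a* to 6.63-fold above *Rab2b* and *Rab7* to 10.2-fold above *Rab7b*, and the leading gene of 13 of the 14 subfamilies was the same as per kilobase of exon, the exception being Rab5.

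**Figure D3:**
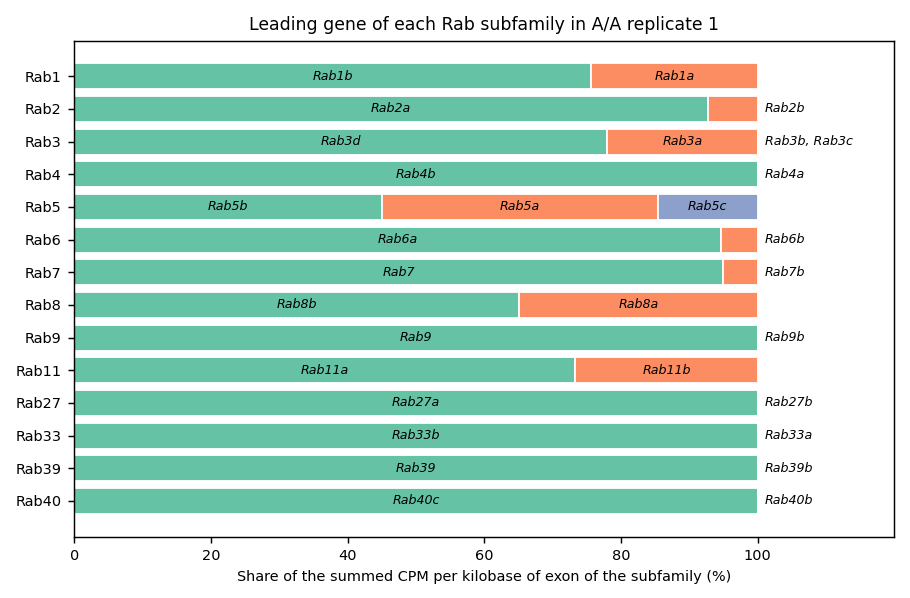
Share of each gene in the summed CPM per kilobase of exon of its subfamily, in percent, for the 14 subfamilies with 2 or more genes in A/A replicate 1. Each bar adds up to 100% and is divided from the highest gene on the left to the lowest, with genes of small or no share named at the right end. *Rab5b* (45.0%), *Rab5a* (40.3%) and *Rab5c* (14.7%) form the most even bar.

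The Rab genes are close enough in sequence that a misplaced read could move a level, so the annotated transcripts were compared. Coding sequences of paralogues were identical at 61.3% (*Rab7* and *Rab7b*) to 77.6% (*Rab1a* and *Rab1b*) of aligned bases over 23 pairs, and the longest identical run was 38 bases. No window of 150 bases, the read length, occurred in the transcripts of 2 Rab genes. For 18 Rab genes a window occurred in a gene outside the family. The share was 72.9% of windows for *Rab43* (with *Gm45140*, 22 reads), 47.8% for *Rab2b*, 44.4% for *Rab4b*, 33.2% for *Rab24* and 16.7% for *Rab20*. It was 13.9% for *Rab6a* and *Rab33b*, 10.5% for *Rab39b*, 7.91% for *Rab11b* and lower for the others. The levels of these genes are therefore uncertain, since the sources used here do not state how overlapping genes or strands were counted.

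**Figure D4:**
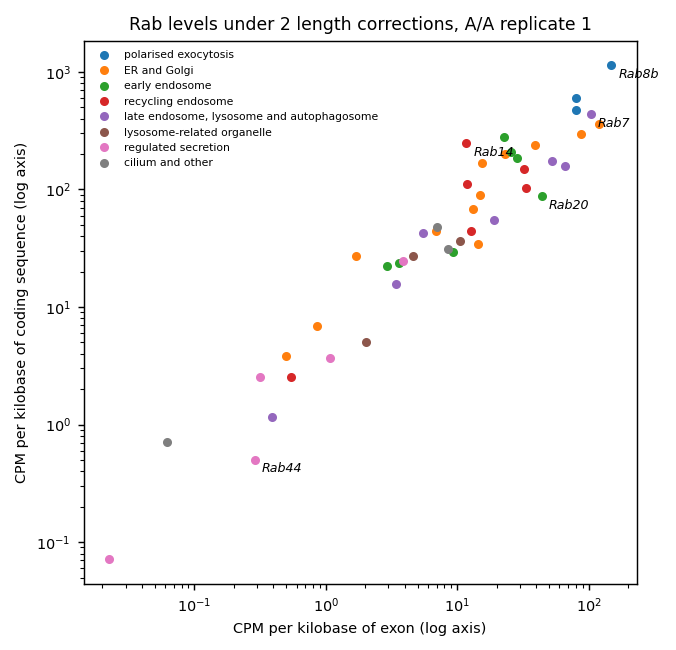
Level of the 46 Rab genes with reads per kilobase of exon (x axis) and per kilobase of coding sequence (y axis), both CPM on log axes, in A/A replicate 1, coloured by role. *Rab8b* is highest on both axes at 149 and 1136, while *Rab14*, with 13589 exon bases, moves from 11.7 on the x axis to 247 on the y axis.

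Genes that act on Rab proteins were examined on lists of 126 genes, of which 110 had more than 3 reads and 83 had at least 10 CPM. Beside these counts and those of each list below, 55.3% of protein-coding and 30.4% of all genes had more than 3 reads. At least 10 CPM were reached by 34.4% of protein-coding and 14.9% of all genes. Among the factors for prenylation and extraction, *Gdi2*, a GDP dissociation inhibitor that extracts Rab proteins from membranes, had 6853 reads and 20.7 CPM per kilobase. *Rabac1*, which helps return Rab proteins to membranes, had 38.2 CPM per kilobase. The escort proteins that present new Rab proteins for prenylation were lower, with 3.59 for *Chm* and 0.662 for *Chml*. All 8 genes of this list had reads.

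Of 36 exchange factors, 34 had more than 3 reads, with a median of 5.32 CPM per kilobase. *Dennd4b*, an exchange factor for Rab10, had 21.9, and *Ccz1*, part of the exchange factor for Rab7, had 21.7, while its partners *Mon1b* and *Mon1a* had 6.81 and 5.64. *Ankrd27*, an exchange factor for Rab21 that also binds Rab32 and Rab38, had 15.0 CPM per kilobase. *Rabgef1*, the Rab5 exchange factor Rabex-5, had 7.20, and *Rin3*, another one, had 2.54. The exchange factors for Rab35, *Dennd1c*, *Dennd1b* and *Dennd1a*, had 13.5, 5.25 and 3.65 CPM per kilobase, while *Rab35* had 0.542. *Hps1* and *Hps4*, whose products form the exchange factor for Rab32 and Rab38, had 8.60 and 7.75 CPM per kilobase.

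Of 36 GTPase activating proteins, 33 had more than 3 reads, with a median of 3.51 CPM per kilobase. *Tbc1d17*, a GTPase activating protein that acts on Rab8, stood far above this, with 66874 reads and 219 CPM per kilobase (95% CI, 217 to 221). Exons of *Il4i1* (51127 reads) and *Akt1s1* on the opposite strand overlapped 36.1% of its exon bases, so its own level is uncertain. *Tbc1d8* had 119 CPM per kilobase and *Tbc1d4*, which acts on Rab10 among others, had 41.0. *Tbc1d10c* had 6.87, with exon overlap of 35.5%.

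Effectors of endosomal Rabs had reads in 24 of 25 cases. *Inpp5b*, a phosphoinositide phosphatase that binds Rab5, was the highest, with 31189 reads and 213 CPM per kilobase, followed by *Rilpl1* (33.6) and *Rilpl2* (25.6). The early endosomal Rab5 effectors *Rabep1* and *Eea1* had 8.70 and 3.95 CPM per kilobase. *Rilp*, the Rab7 effector that links lysosomes to dynein, was listed at 0. Of 13 effectors of Rab27 and Rab3, 3 had reads. *Unc13d*, which acts with Rab27a in granule priming, had 2063 reads and 14.0 CPM per kilobase, *Sytl1* had 97 reads and *Sytl3* had 81, while 10 genes, *Sytl2*, *Sytl4*, *Sytl5*, *Myrip* and *Mlph* among them, were listed at 0.

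The tethers of the endolysosomal pathway had reads in 8 of 8 cases. The HOPS complex acts with Rab7 at late endosomes and lysosomes, and CORVET acts with Rab5 at early endosomes. They share the core subunits *Vps11*, *Vps16*, *Vps18* and *Vps33a*, which had 16.3 to 19.7 CPM per kilobase. The subunits particular to HOPS, *Vps39* and *Vps41*, had 20.7 and 15.4 CPM per kilobase. Those particular to CORVET were lower, with 2.86 for *Vps8* and 0.926 for *Tgfbrap1*.

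**Figure D5:**
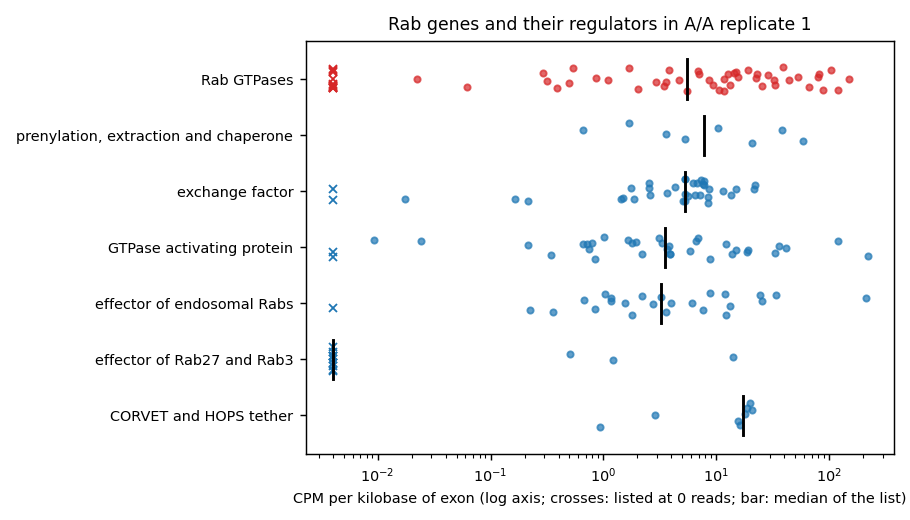
Level of the 59 Rab genes (red) and of the genes on 6 lists of regulators and effectors (blue) in A/A replicate 1, as CPM per kilobase of exon on a log axis. Each point is a gene, crosses are genes listed at 0, and black bars are list medians with genes at 0 included. *Tbc1d17* (219) and *Inpp5b* (213) are the highest points, and 10 of the 13 effectors of Rab27 and Rab3 are crosses.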

How the data were processed

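Sorted pDC RNA was made into mRNA libraries and sequenced as 150 bp paired-end reads. The submitters' processing notes name HISAT2 and StringTie and the builds mm8 and mm10, without roles. The counting tool, the annotation and the use of strand are not given in the sources used here. The authors deposited a normalized signal for each gene, and every value above 0 (100%) was a whole multiple of 1.19 within 0.01, so read counts had been divided by 1 factor for the library. Whole reads were recovered by dividing by that step, 31408298 in all over 17664 genes.

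The deposited coordinates are those of GRCm38. All 59 Rab genes matched GENCODE M21 by identifier and 53 had identical coordinates. Exon length was the union of annotated exons. Coding length was the longest annotated coding sequence of a gene, with incomplete transcripts included. Levels are CPM and CPM per kilobase with 95% Wilson intervals. Ratios of paralogues have exact binomial intervals. Recovery of reads was tested on 3 simulated libraries of 52550 genes, with 100% recovered. Python 3.11.15, numpy 2.4.6, pandas 2.3.3, scipy 1.17.1, matplotlib 3.10.9 and Biopython 1.88 were used.

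With 1 library no test between genotypes was possible. The Rab genes, roles and lists were chosen with earlier results of these data known. Every Rab gene is named, and of each list the 3 highest genes and the partners chosen with the list are named where a role was known, while *Dennd1a*, *Hps1*, *Hps4*, the other tether subunits and the named effectors at 0 were chosen after their values were seen. Some items are not reported here. Alternatives changed the read minimum (1 and 10), the length, the background of percentiles, the pseudocount of 1 (to 0.1 and 0.01) and the genes with exon overlap of at least 20%.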

Additional observations from a re-analysis of the deposited data

Results flagged for a closer look

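Rows with Rab names that fall outside the family rule had reads above the floor of 3 reads (0.0955 CPM), in data that the description of the 59 genes did not use. *Rab10os*, an antisense gene (chromosome 12, plus strand, 3235504 to 3250377), had 23.8 CPM from 749 reads, and its exons overlapped 4.07% of the exon bases of *Rab10*. *Rab11b-ps2*, a processed pseudogene on chromosome 19, had 47 reads, or 1.50 CPM, while *Rab11b* had 2269 reads. *Rab26os*, antisense to *Rab26*, had 9 reads, or 0.287 CPM, while *Rab26* itself had 2 reads. Without a statement on strand, reads in the exon bases that *Rab10os* and *Rab10* share cannot be told apart. The annotated exons of *Rab26os* did not overlap those of *Rab26*. No control library was analysed here.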

How the results depend on the processing

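No paired analysis was possible because 1 library, A/A replicate 1, was used. The number of Rab genes with reads was 46 with at least 1 read and 45 with at least 10, against 45 with more than 3. Of the 10 highest genes per kilobase of exon, 9 were among the 10 highest with the longest transcript and 7 with the coding length, and *Rab8b* was the highest under both. The leading gene was the same in 13 of 14 subfamilies with the longest transcript, with the coding length and with CPM without length. The family's sum of 4016 CPM was the same from recovered reads, and was 3627 without the 5 genes with exon overlap of at least 20%. The share of the endosomal and lysosomal genes, 41.7%, was 45.2% with the longest transcript, 37.7% with the coding length and 37.5% with CPM without length. The median percentile of Rab genes with reads among all genes with reads, 80.1, was 89.4 over all listed genes with Rab genes at 0 included, 73.3 over protein-coding genes with reads, 75.7 over genes with at least 10 reads and 74.1 for CPM without length. Adding or dropping low genes from the background raises or lowers it by construction. The median of log2(CPM + 1), 4.42, was 4.36 with a pseudocount of 0.1 and 4.35 with 0.01, and 5.09 for genes with at least 10 reads, which leaves out the genes at 0. The median of the regulators, 3.75 CPM per kilobase, was 3.68 without overlapping genes. For single genes, CPM without length moved the percentile beyond the counting error for 38 of 46, with 25 higher and 21 lower, by at most 18.0 points. Depth limited the 9 genes with 16 to 135 reads.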

Other observations

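Low read numbers of protein-coding genes were uneven in A/A replicate 1, which bears on the Rab genes at 0. A count of 3 was held by 46 genes, a count of 4 by 116, a count of 5 by 84, a count of 6 by 44, a count of 7 by 52 and a count of 8 by 90, while 9618 were at 0. The cause was not tested. Of the 4 Rab genes on chromosome X, *Rab9* had reads and *Rab9b*, *Rab33a* and *Rab39b* were listed at 0. *Lrrk2*, the kinase bound by Rab29, was named after its value was seen and had 483 reads, or 15.4 CPM and 1.30 CPM per kilobase, while *Rab29* had 66.0 CPM per kilobase.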
